A study of Mus musculus with 3 samples.

Results

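The genes examined were the interferon-stimulated genes and the interferon receptors of the adult mouse renal corpuscle, the glomerular capillary tuft with its capsule. They were 48 listed genes in 10 classes, and 42 of them had a probe set that named no other gene, of 19938 genes with such a probe set on the array. The genes were chosen by measured values of these same 3 arrays: earlier results had shown many of them higher on replicate 2 than on the other 2 arrays. Their differences on replicate 2 are therefore a description, with no test.

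The samples were 3 pools of renal corpuscles from wild-type CD-1 male mice aged 7 to 9 weeks, each from approximately 2 kidneys, and they formed 1 untreated group. Digestion of the minced tissue took 15 minutes at 37 °C in collagenase A (0.5%), corpuscles were collected through filters of 100, 70 and 40 µm, and the RNA was amplified in 1 round (NuGEN WT-Ovation Pico) and hybridised to Affymetrix mouse gene arrays. Nothing in the labels tells if the pools were of different litters or days, and the spread between arrays may be technical. The median signal was 7.09 to 7.11 on the log2 scale on the 3 arrays. With 3 arrays the precision of all values is limited. A gene was called above background when its log2 signal exceeded, on each array, the 95th percentile of 1212 chemosensory (olfactory or vomeronasal) receptor probe sets, which was 6.90, 6.96 and 6.92 on replicates 1, 2 and 3. Markers of the labelled tissue were present: all 10 podocyte, 10 endothelial and 6 mesangial markers with a value were above background on all 3 arrays, against 59.1% of all genes. None of the 26 was 1.5-fold apart on replicate 2, where 0.406% of all genes were higher and 0.0903% lower, so this says little on equal cell content. Differences of the 26 from the mean of the other 2 arrays ran from -0.36 (Tek) to 0.15 (Agtr1a) on the log2 scale.

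Interferons are secreted proteins by which cells announce infection or damaged nucleic acid. Type I interferons bind a receptor made of Ifnar1 and Ifnar2, and type II interferon binds a receptor made of Ifngr1 and Ifngr2. Both receptors act through Janus kinases and STAT proteins. Downstream of the type I receptor, Stat2 and Irf9 are part of a complex that binds the interferon-stimulated response element (ISRE) in promoters, and the type II receptor acts through the gamma-activated site (GAS). The induced genes encode sensors of foreign nucleic acid, enzymes that block viral translation and replication, GTPases that attack the vacuoles of intracellular parasites, and the STAT and IRF factors themselves. Many are also expressed at a low level in unstimulated tissue.

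The element is visible in the reference promoter of Ifit1, the gene of the set with the largest difference on replicate 2. The 250 bases before its start site (RefSeq, build GRCm38.p6, plus strand) are shown with the ISRE core, GAAANNGAAA or on the other strand TTTCNNTTTC, in capitals, at -104 and -85 from the start site.
Ifit1 (chr19:34640639-34640888, plus strand): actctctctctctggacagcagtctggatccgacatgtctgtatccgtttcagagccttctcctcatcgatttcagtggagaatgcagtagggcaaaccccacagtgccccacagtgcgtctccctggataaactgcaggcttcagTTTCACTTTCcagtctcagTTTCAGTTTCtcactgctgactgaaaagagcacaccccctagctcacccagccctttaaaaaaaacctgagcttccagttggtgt

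The same core was searched on both strands in all 32851 RefSeq promoters of the build, each from 250 bases before to 50 after the start site. It was found in 3.44% of promoters and in 3.99% of genes. Of the 48 listed genes, 36 had a promoter entry, and 15 of the 36 (41.7%) held the core. The windows below, with 10 bases on each side of the core and cores in capitals, are those of the other genes that were at least 1.5-fold higher on replicate 2. Overlapping cores were merged, so the Irgm1 and Gbp3 windows each hold 2.
Ifit3 (chr19:34583363-34583392, plus strand): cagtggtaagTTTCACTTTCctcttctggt
Ifit3, nearer the start site (chr19:34583397-34583426, plus strand): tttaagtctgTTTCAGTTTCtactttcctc
Irgm1 (chr11:48871425-48871460, minus strand): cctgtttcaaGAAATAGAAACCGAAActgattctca
Gbp3 (chr3:142559989-142560024, plus strand): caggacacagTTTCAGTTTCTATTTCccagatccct
Stat2 (chr10:128270266-128270295, plus strand): cgcaccctggTTTCAGTTTCctttccctag

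Cores were also found in genes of the set that lay below 1.5-fold or had no value of their own. Isg15, whose probe set named several genes, held 3 overlapping cores, and the upstream windows of Bst2 and Rsad2 held 2 and 1. The windows of the GTPase genes Igtp and Irgm2 were alike in 29 of 30 bases.
Isg15 (chr4:156200865-156200906, minus strand): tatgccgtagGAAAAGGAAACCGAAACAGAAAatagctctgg
Bst2 (chr8:71537577-71537612, minus strand): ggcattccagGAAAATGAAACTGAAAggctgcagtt
Rsad2 (chr12:26456553-26456582, minus strand): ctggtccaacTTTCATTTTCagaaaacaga
Igtp (chr11:58199512-58199541, plus strand): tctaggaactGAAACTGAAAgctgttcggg
Irgm2 (chr11:58214903-58214932, plus strand): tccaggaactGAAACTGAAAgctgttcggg

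Of the 17 genes at least 1.5-fold higher on replicate 2, only 9 had a promoter entry, and 5 of these 9 held the core. Of the 21 other genes with a promoter entry and a value, 6 held it. Those 6 were Bst2, Ddx58, Eif2ak2, Ifih1, Oas3 and Rsad2. No receptor promoter held the core, which says little beside the 3.99% of all genes that did. The GAS, TTCNNNGAA, reads the same on both strands and was found in 8.3% of all promoters, in 9.55% of all genes and in 11 of the 36 promoter-matched genes of the set (30.6%), among them Ifnar1 and Ifnar2. None of the 9 genes past 1.5-fold held a GAS, and 9 of the 21 others did. Beside 9.55% of all genes, a count of 0 among 9 says little. These matches describe letters in the reference sequence and are not evidence of binding.

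**Figure D1:**
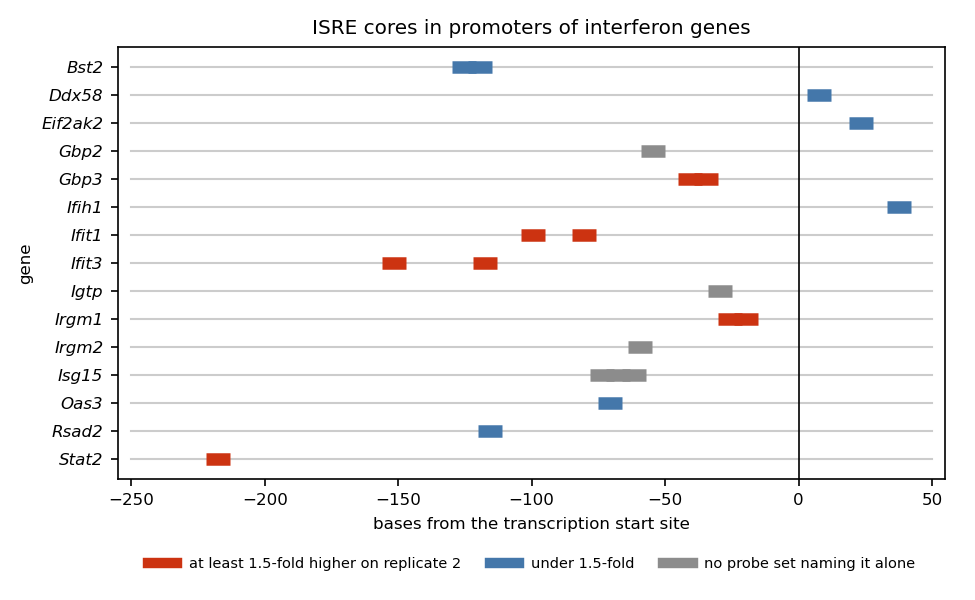
Position of each ISRE core (coloured blocks) in the promoters of the 15 genes that held at least 1, in bases from the transcription start site (vertical line at 0), with grey lines for the promoter searched. Red marks genes at least 1.5-fold higher on replicate 2, blue genes below that, and grey genes without a probe set of their own, and the cores of all but Ddx58, Eif2ak2 and Ifih1 lie upstream of the start site.

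Of the 42 genes with a value, 36 (85.7%) were above background on all 3 arrays, against 59.1% of all genes. The exceptions were Oas3, Dhx58, Zbp1, Mx1, Mx2 and Cmpk2. The linear signal was over 150 on all arrays for 35 of the 42 genes, over 500 for 9 and over 1000 for 3. Of all 19938 genes, 10229, 3437 and 1514 were over these levels. The counts over 500 and 1000 are thus near the share of all genes. Array signals are not compared between genes here, because probe sets differ in response. In whole corpuscles, fewer cells of a type and less RNA per cell cannot be told apart.

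Replicate 2 was the array on which these genes were high. It gave the highest of the 3 values for 32 of 42 genes (76.2%), against 8.38% of all genes, and a signal at least 1.5-fold (0.585 on the log2 scale) above the mean of the other 2 arrays for 17 of 42 (40.5%), against 0.406% of all genes. None was 1.5-fold lower, against 0.0903% of all genes. The median difference of replicate 2 from the mean of replicates 1 and 3 was 0.50 over the 42 genes on the log2 scale and 0 over all genes. As the genes were chosen by this contrast, these values describe the set and support nothing. In each of the 17 the difference also exceeded the gap between replicates 1 and 3, as it did in 75 of the 81 genes past 1.5-fold on the array as a whole. Just inside 1.5-fold were Mx1 (0.61) and Irf9 (0.67), and just outside were Herc6 and Parp9 (each 0.53).

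**Figure D2:**
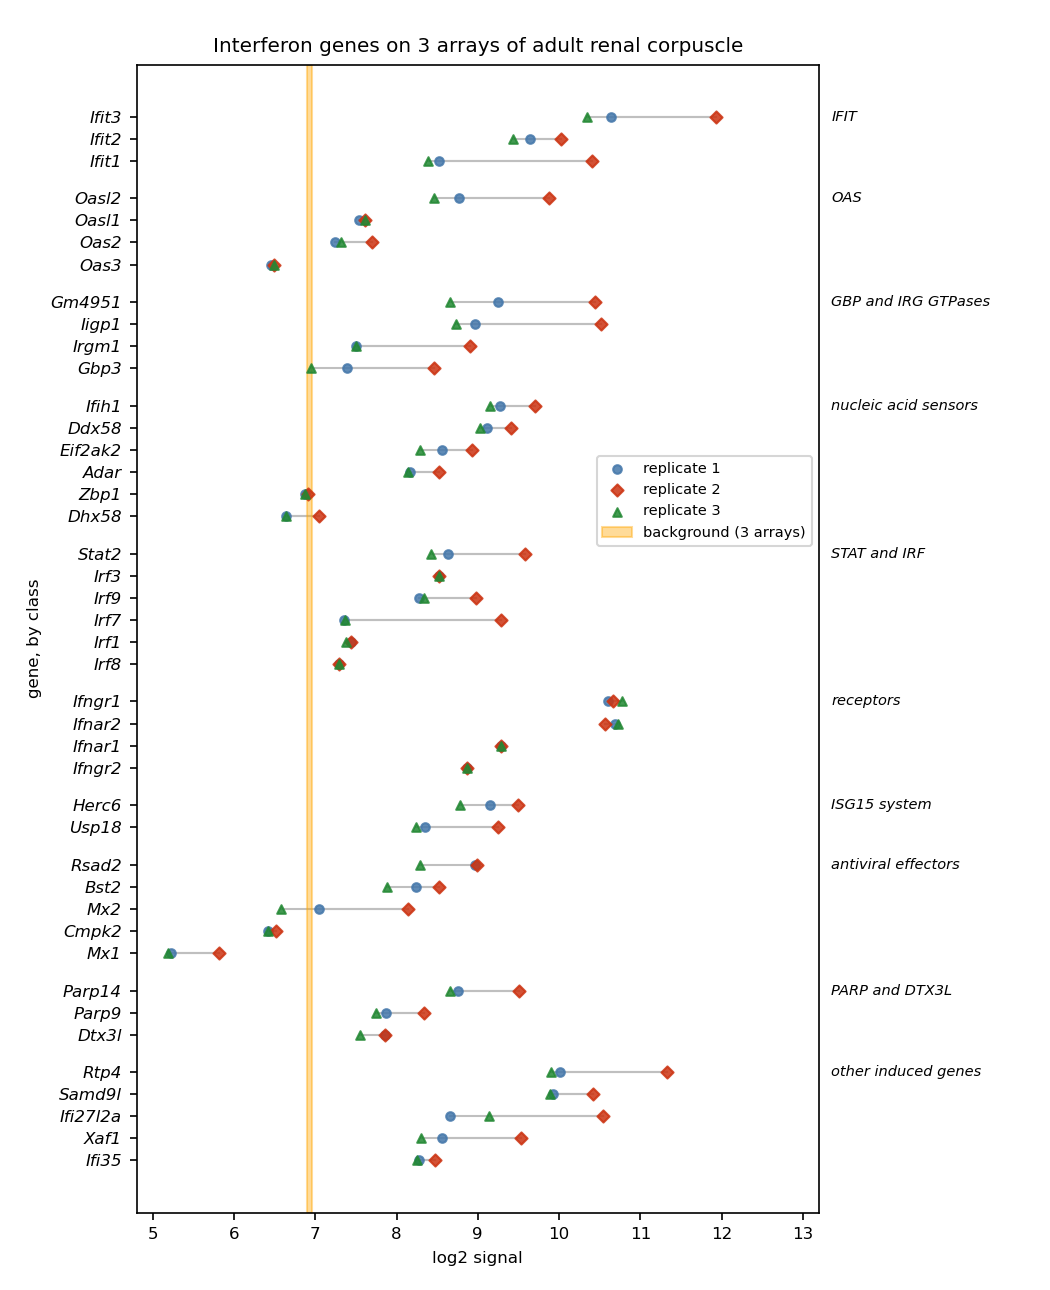
Log2 signal of the 42 genes with a value (horizontal axis) on the 3 arrays, 1 marker for each array, grouped by class and ordered by mean, with the range of the background level as a band. Replicate 2 (red diamonds) lies to the right of the other arrays in 32 genes, while all 4 receptors have nearly the same signal on the 3 arrays.

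The 4 receptors varied little between arrays. Ifnar1, the type I receptor chain, had a log2 signal of 9.28 on all 3 arrays, and Ifngr2, the accessory chain of the type II receptor, 8.87 on all 3. Ifnar2, the other type I chain, had 10.69, 10.57 and 10.72 on replicates 1, 2 and 3, and was lowest on replicate 2. Ifngr1, which binds type II interferon, had 10.60, 10.67 and 10.77. The differences of replicate 2 from the other arrays thus ran from -0.13 to 0 over the 4 receptors, and none was 1.5-fold apart. Of all genes only 0.406% were higher and 0.0903% lower, with a median difference of 0, so this says little on the receptors. The linear signals corresponding to the mean log2 values were 622, 1620, 1639 and 469 for Ifnar1, Ifnar2, Ifngr1 and Ifngr2. Identical values on all 3 arrays were found for 54.2% of all genes. They do not mean an error of 0, and the sources used here do not say how such ties arose.

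Among the STAT and IRF factors, 3 of 6 were at least 1.5-fold higher on replicate 2. Irf7, the factor that amplifies type I interferon production, had 7.36, 9.28 and 7.36 on the log2 scale. Replicates 1 and 3 differed by 0.006, and replicate 2 was 1.92 higher, or 3.79-fold. Stat2 had 8.64, 9.58 and 8.43 (2.07-fold higher on replicate 2), and its partner Irf9 had 8.27, 8.98 and 8.33 (1.59-fold). Irf1, Irf3 and Irf8 were within 0.04 of the other arrays on replicate 2. Irf3, which starts the response, and Irf8, a factor of myeloid cells, had 1 value each on all arrays, 8.53 and 7.29.

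All 4 GTPases with a value were higher on replicate 2. Iigp1, an immunity-related GTPase that acts on parasite vacuoles, had 8.97, 10.51 and 8.74 (3.17-fold). Gm4951, a predicted gene listed with these GTPases, had 9.24, 10.45 and 8.65 (2.83-fold). Irgm1, a regulator of the family, had 7.50, 8.91 and 7.50 (2.65-fold), the 2 low arrays differing by 0.008. Gbp3, a guanylate-binding protein, had 7.39, 8.47 and 6.95 (2.46-fold). In all 4 replicate 2 was above both other arrays by more than those differed from each other, the widest gap being 0.59 for Gm4951. Irgm2, Igtp, Ifi47 and Gbp2 share their probe sets with other genes and are not reported.

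The IFIT proteins bind foreign RNA and hold back its translation. Ifit1 had 8.53, 10.40 and 8.39, 1.95 higher on replicate 2 or 3.85-fold, which was the largest difference of the 42 genes (SD over the 3 arrays 1.13). Ifit3 had 10.63, 11.93 and 10.34 (2.72-fold). Ifit2 was 1.40-fold higher. The OAS enzymes make oligoadenylates that activate RNase L, and the class here also holds the OAS-like genes Oasl1 and Oasl2. Oasl2 had 8.77, 9.88 and 8.47 (2.40-fold), whereas the other 3 members were 0.02 to 0.42 apart on the log2 scale. Of these, Oas3 was below background on every array.

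Of the 6 nucleic acid sensors none was 1.5-fold higher, against 0.406% of all genes, and the differences ran from 0.04 to 0.51. Replicate 2 was the highest array in all 6, against 8.38% of all genes. Ifih1, the sensor of long double-stranded RNA, had 9.27, 9.70 and 9.15 (1.40-fold). The largest difference was that of Eif2ak2, the kinase that halts translation upon double-stranded RNA, at 1.43-fold. The other 4 were Ddx58, Dhx58, Zbp1 and Adar. Zbp1 was below background on every array, and Dhx58 was above it on replicate 2 alone.

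The ISG15 system and the antiviral effectors were mixed. Usp18, the protease that removes the ubiquitin-like protein Isg15 and dampens the type I receptor, had 8.36, 9.25 and 8.23 (1.93-fold). Herc6, an Isg15 ligase of the mouse, had 9.15, 9.50 and 8.78 (1.45-fold). Mx2, a dynamin-like GTPase, had 7.05, 8.15 and 6.58 (2.51-fold), and its replicate 3 value was below background. Mx1 had 5.23, 5.81 and 5.18 (1.52-fold), below background on every array, so its difference is between values that are not measured above noise. Rsad2 (viperin) had 8.97, 8.99 and 8.29, so that replicates 1 and 2 were alike and replicate 3 was low. Bst2 (tetherin), an envelope protein tether, was 1.38-fold higher. Cmpk2, the neighbour of Rsad2, was below background on every array.

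In the PARP and DTX3L class, Parp14, an ADP-ribosyltransferase, had 8.76, 9.51 and 8.66 (1.74-fold). Parp9 had 7.87, 8.34 and 7.75 (1.45-fold), and its ubiquitin ligase partner Dtx3l was 0.15 higher. Of the 5 remaining induced genes, 3 were past 1.5-fold. Rtp4, a receptor transporter protein, had 10.01, 11.32 and 9.91 (2.58-fold). Ifi27l2a had 8.66, 10.54 and 9.14 (3.11-fold), and replicates 1 and 3 differed by 0.48. Xaf1, a factor that promotes apoptosis, had 8.56, 9.53 and 8.30 (2.14-fold). Ifi35 and Samd9l were 0.21 and 0.50 higher. No probe set for Ifi44 was found under this naming, and it is not analysed here.

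By class, the median difference on replicate 2 was 1.45 for the GTPases, 1.44 for the IFIT genes, 1.10 for the other induced genes, 0.74 for the ISG15 system, 0.53 for PARP and DTX3L, 0.46 for the antiviral effectors, 0.39 for the sensors, 0.35 for STAT and IRF, 0.23 for OAS and -0.009 for the receptors. Classes hold 2 to 6 genes, and differences between them were not tested. Ties between arrays bear on these counts, since 54.2% of all genes had 1 value on all 3 arrays but only 4 of the 42 genes (9.52%). Restricted to genes with 3 distinct values, replicate 2 was highest in 29 of 31 (93.5%), against 24% of all such genes, and the 2 exceptions were receptors. The median SD of such genes was 0.40 over the 31 and 0.095 over all.

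**Figure D3:**
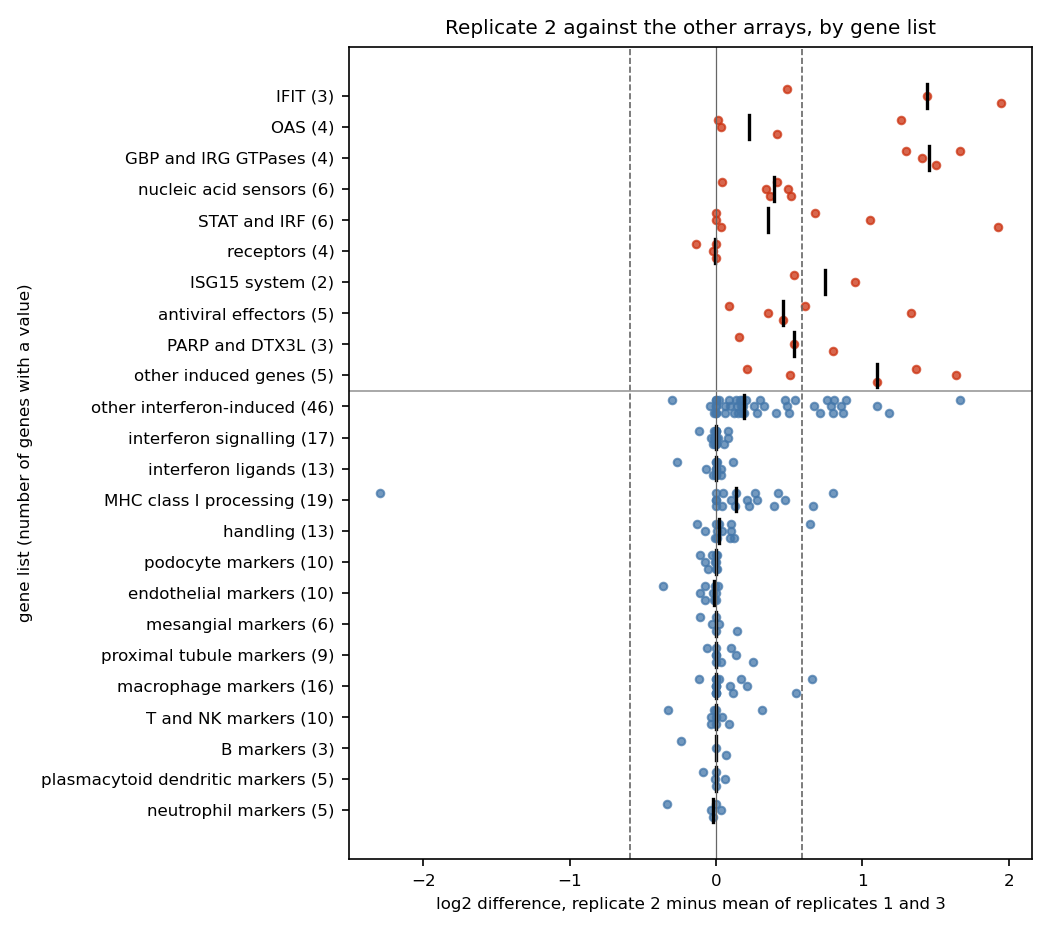
Log2 difference of replicate 2 from the mean of replicates 1 and 3 (horizontal axis) for each gene, by list, with the number of genes in brackets, list medians as black bars and 1.5-fold in each direction as dashed lines. The classes of the set (red) are shifted right apart from the receptors, and marker and signalling lists (blue) lie around 0.

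The genes were chosen on replicate 2 against the mean of replicates 1 and 3. The difference between replicates 1 and 3 was not itself used, but both arrays entered the choice. It is therefore a description too. Replicate 1 was higher than replicate 3 for 26 of 42 genes (61.9%), against 20.3% of all genes. It was lower for 9 (21.4%, against 17.9%) and equal for 7 (16.7%, against 61.9%), so ties bear on this comparison. The median difference was 0.08 on the log2 scale, and 0 over all genes. Among genes with 3 distinct values, 24 of 31 (77.4%) were higher on replicate 1, against 57.9% of all such genes. Of the 17 genes past 1.5-fold on replicate 2, 13 were higher on replicate 1 than on replicate 3 and 4 were lower, as were 56 and 20 of the 81 such genes of the whole array. The widest difference between replicates 1 and 3 was that of Rsad2, 0.68. Counted against the mean of the other 2 arrays, 6 of the 42 genes were at least 1.5-fold lower on replicate 1 and 13 on replicate 3, against 0.201% and 0.296% of all genes, and none was higher on either. These counts share replicate 2 with the counts above.

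**Figure D4:**
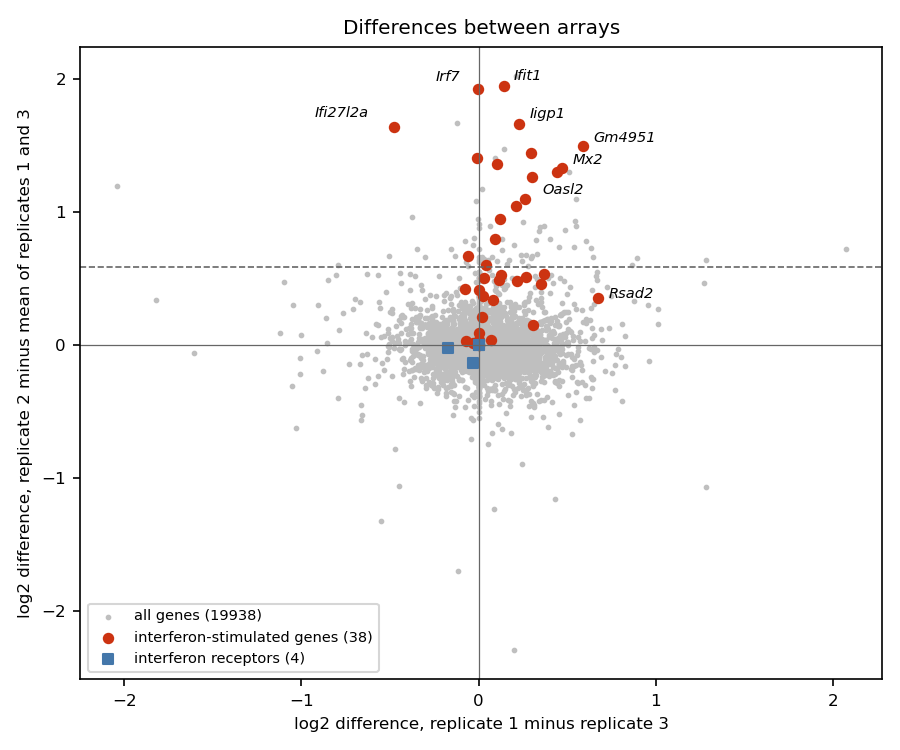
Log2 difference of replicate 2 from the mean of the other arrays (vertical axis, dashed line at 1.5-fold) against the log2 difference of replicate 1 from replicate 3 (horizontal axis), with all 19938 genes in grey, the 38 interferon-stimulated genes in red and the 4 receptors in blue. The red points extend upward to 1.95, while on the horizontal axis they lie between those of Ifi27l2a and Rsad2.

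Among all genes at least 1.5-fold higher on replicate 2, the 17 genes made up 21% of 81. They gave 6 of the 10 and 12 of the 20 largest rises. The remaining 4 of the 10 were Nell2, a secreted glycoprotein (7.69, 9.61 and 7.48), Ifit3b (8.08, 9.81 and 8.20), Bhlhe41, a transcriptional repressor of the circadian clock (6.08, 7.48 and 5.93), and Ifi202b, a gene of the interferon-inducible p200 family (7.50, 8.86 and 7.40). Ifit3b is a near copy of Ifit3, so their probe sets may share signal, which was not tested.

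A list of other interferon-induced genes was compiled with earlier results of these data known. On replicate 2, 12 of its 46 genes (26.1%) were at least 1.5-fold higher, against 0.406% of all genes. None was lower, against 0.0903% of all genes, and the median difference was 0.19. The 12 were Ifit3b, Oas1a (8.02, 8.84 and 7.47), Oas1b (7.48, 8.11 and 7.00), Gbp4, Gbp7, Gbp9, Trim30a, Sp100, Lgals3bp, Slfn2 (7.98, 9.15 and 7.96), Ddx60 and Rnf213. Of the 17 further genes of interferon signalling with a value, none was past 1.5-fold (range -0.12 to 0.08). They encode kinases, adaptors, transcription factors, receptors and inhibitors. As few genes of the whole array were past 1.5-fold (0.406% higher, 0.0903% lower), a count of 0 says little. Among the interferons themselves, 4 of 13 ligand genes (30.8%) were above background on all arrays, fewer than the 59.1% of all genes. They were Ifna2, Ifna5, Ifna14 and Ifnab, and signal shared between probe sets of ligand genes was not tested. None of the 13 was 1.5-fold apart. Ifnb1 and Ifng had 6.04 and 6.22 on all 3 arrays, below background.

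The counts of this paragraph stand beside 59.1% of all genes above background on all arrays. On replicate 2, 0.406% of all genes were at least 1.5-fold higher and 0.0903% lower. Of 16 macrophage markers, 10 (62.5%) were above background on all arrays, which is near the share of all genes. Summed linear signal of the 16 was 4402, 4573 and 3919 on replicates 1, 2 and 3. Mrc1 (10.41, 10.19 and 10.20) weighed most in this sum and was lowest on replicate 2. Tyrobp, an adaptor of myeloid receptors, was the 1 marker past 1.5-fold (9.01, 9.52 and 8.71). Lyz2 was just under it (8.98, 9.20 and 8.31, 1.46-fold). Replicate 2 was the highest array in 6 of the 16 (37.5%, against 8.38% of all genes) and the lowest in 1. Adgre1 and Itgam were below background on all 3 arrays. Summed signals were 1205, 1215 and 1157 for T and NK markers (3 of 10 above background), 347, 302 and 300 for B markers (1 of 3), 912, 909 and 920 for plasmacytoid dendritic markers (2 of 5) and 1070, 997 and 1036 for neutrophil markers (3 of 5), and none of these markers was 1.5-fold apart. In the proximal tubule list 8 of 9 markers were above background, with sums of 3711, 4196 and 3972. Of 13 genes that respond to tissue handling, the heat shock gene Hspa1a was past 1.5-fold (8.24, 8.86 and 8.19) and the median difference was 0.018. The sums include markers below background and give most weight to probe sets of high signal, so similar sums do not show equal cell content. The part of these cell types and of handling in the values of replicate 2 was not tested.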

How the data were processed

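Values were the deposited log2 signals of 35557 probe sets on 3 arrays (Affymetrix mouse gene array), which the authors made with Affymetrix Expression Console, per the submitters' processing notes. The version and summarization method are not given in the sources used here. No batch or scan date was given, and 42.4% of probe sets had 1 value on all 3 arrays. Of the probe sets, 21789 named 1 gene symbol, 1621 several and 12147 none in the platform annotation, and a gene took the probe set of highest mean that named it alone. Symbols were checked against RefSeq through 21698 gene IDs, and 0 changed.

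Background was the 95th percentile of receptor probe sets on each array. Each array was compared with the mean of the other 2 as a log2 difference, with 1.5-fold as the threshold. As the arrays form 1 group, no test was run. The members and gene lists were chosen with earlier results of these data known. Within the set, array values are given for genes past 1.5-fold on replicate 2, receptors, the highest gene of each class and genes next to the threshold. They are also given for the 10 largest differences upward on the array, and for some further genes of the set and of the other lists. Promoters were RefSeq sequences of GRCm38.p6, matched for 36 of 48 genes by symbol. Scripts used Python 3.11.15, pandas 2.3.3, numpy 2.4.6, R 4.3.3 and limma 3.58.1 (quantile normalization as an alternative), and were tested on simulated data. Other alternatives were thresholds of 25% and 2-fold, other background levels, median centring, the mean over probe sets, a filter on low values and leaving out each array.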

Additional observations from a re-analysis of the deposited data

How the results depend on the processing

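No paired analysis was possible because all 3 arrays belong to 1 group. The 17 genes past 1.5-fold on replicate 2 stayed past it under all 5 settings tried for single genes (quantile normalization, median centring, the mean over probe sets, and leaving out replicate 1 or 3), the smallest difference being 0.59 on the log2 scale. With a threshold of 25% higher signal the count was 29, at 2-fold it was 13, with only genes of mean signal above background it was 16, and it ran from 17 to 23 when 1 of the other arrays was left out. Leaving out replicate 2 gives no value for that array. The median difference on replicate 2 stayed between 0.42 and 0.61, and the mean over the genes was 0.66. At 25% and at 2-fold, 13 and 1 genes were lower on replicate 1, and 23 and 4 on replicate 3, and 1 gene was higher on replicate 1 at 25%. With 1 array left out, a setting chosen after seeing the data for replicates 1 and 3, 0 to 17 genes were lower and 0 to 2 higher on replicate 1, and 2 to 23 were lower on replicate 3. The median on replicate 1 ran from -0.42 to 0.08 and was reversed, at 0.0765, without replicate 2. The count above background was 29 with the 99th percentile, 41 with the median and 35 at a fixed linear signal of 150. Except at the signal of 150, shares of all genes under these other settings are not given here. The counts therefore show only how those of the set move with the setting. Signal over background limits the values of Mx1, Oas3, Zbp1 and Cmpk2.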

Other observations

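Antigen-presentation genes, many of which interferon induces, were listed separately. Of 19 genes of MHC class I processing with a value, 18 (94.7%) were above background on all arrays, against 59.1% of all genes. On replicate 2, 2 of the 19 (10.5%) were at least 1.5-fold higher, against 0.406% of all genes. In the other direction, 1 (5.26%) was at least 1.5-fold lower, against 0.0903% of all genes. The 2 higher genes were the immunoproteasome subunits Psmb8 (9.40, 10.05 and 9.38 on the log2 scale on replicates 1, 2 and 3) and Psmb9 (10.58, 11.31 and 10.45). The median difference over the 19 was 0.14, against 0 over all genes. Replicate 2 was the highest array in 14 (73.7%), against 8.38% of all genes. The class I gene H2-Q5 went the other way, with 9.86, 7.46 and 9.66 and a difference of -2.29 on replicate 2. This was the largest fall on replicate 2 of all 19938 genes, and larger in size than the largest rise (2.03, Nell2). Class I genes are near copies of each other, so the assignment of this signal to H2-Q5 alone is uncertain.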
